A study of Mus musculus with 69 samples.

Results

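Scavenger receptors are cell surface and vesicle membrane proteins that bind modified lipoproteins, ferritin and other polyanionic ligands and carry them into the cell. Class A receptors hold a collagen-like stretch, class B receptors are anchored in the membrane at both ends and exchange lipids, and the lectin-like receptor of oxidised low density lipoprotein forms a class of its own. In the vessel wall they are known above all for the uptake of modified lipoproteins by macrophages, endothelial cells (EC) and vascular smooth muscle cells (VSMC) during atherosclerosis.

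The RNA of 7 scavenger receptors was followed in 69 bulk RNA-Seq libraries, out of 56953 Ensembl identifiers that were counted. The genes were chosen by their symbols. They comprise 4 of class A (Scara5, Scara3, Colec12 and Msr1), the class B receptors Scarb1 and Scarb2, and the lectin-like receptor Olr1. Scara5 and Scarb2 were put forward on the basis of these libraries. The comparison that chose them is not stated and was taken to be the log2 fold change (log2FC) of the stressors against Control, so these values, and differences between them, are given for both genes as a description with no test. The other genes of the family were added by name.

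VSMC were grown from the thoracic and abdominal aorta of male C57BL/6 mice, either wildtype (WT) or with the Egfr gene, which encodes the EGF receptor, deleted in smooth muscle (KO, labelled EGFR-KOsmc, floxed Egfr with Cre driven by the SM22 promoter). EC were isolated from the heart of male C57BL/6 mice with beads against the leukocyte marker CD45 (depletion) and the endothelial marker CD31 (selection) and were labelled WT. Cells of each culture were divided into a set of up to 4 libraries. These were an unstressed Control, high glucose plus free fatty acids (HG + FFA, 20 mM glucose with oleate and palmitate at 100 µM each), angiotensin II plus a catecholamine (AII + NA, 30 nM and 300 nM, named epinephrine in the labels and norepinephrine in the study's methods), and both together (ALL), each for 24 h. WT VSMC comprised sets 1 to 4, KO VSMC sets 5 to 8 and EC sets 9 to 18. The ALL library of set 5, the Control library of set 10 and the AII + NA library of set 15 were not analysed here. A single animal gave EC sets 17 and 18. EC sets 9 and 10 were taken from the animals of WT VSMC sets 1 and 2. EC sets 15 and 16 came from the animals of KO VSMC sets 7 and 6, and Egfr was low in them (7.62 to 12.85 and 2.19 to 3.17 FPM). Egfr was also low in EC set 18 (10.82 to 19.04 FPM) but not in EC set 17 (42.4 to 48.3 FPM), and their animal gave no VSMC set.

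Levels are given as FPM, the reads of a gene scaled to a common library size after TMM normalisation. A gene was called when its false discovery rate (FDR) was under 0.05 in both edgeR and DESeq2, its |log2FC| reached 0.64 and its mean reached 3 FPM in either group. The libraries held between 17166133 and 43240489 counted reads. As a check of the knockout, Egfr ranged from 214.8 to 473 FPM in WT VSMC and from 0.521 to 1.96 FPM in KO VSMC sets 6 to 8, but from 33.1 to 39.4 FPM in set 5. Set 5 also differed from sets 6 to 8 in the smooth muscle gene Myh11, with a set mean of 234 against 2.69 to 7.46 FPM, and in the adventitial fibroblast gene Pi16, with 222 against 2.23 to 16.4 FPM. The defining endothelial gene Pecam1 reached set means of 264 to 1634 FPM in 7 EC sets and of 18.4 to 42.8 FPM in sets 9, 11 and 13. In the WT VSMC sets the mean of Myh11 was 3.78 to 10.3 FPM, and the smooth muscle gene Acta2 ranged from 210.3 to 1784 FPM over the libraries. The summed level of 8 smooth muscle markers had set means of 737 to 1258 FPM there, and that of 10 fibroblast markers had set means of 2670 to 4648 FPM. These values are given again beside the results they touch. In bulk RNA, fewer cells of a type and less RNA per cell cannot be told apart.

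Positions are given in build GRCm39. Scara5 (ENSMUSG00000022032, chr14:65903844-66002275, plus strand) and Scara3 (ENSMUSG00000034463, chr14:66156569-66191401, minus strand) both lie on chromosome 14. Scarb2 (ENSMUSG00000029426, chr5:92589169-92654692) and Scarb1 (ENSMUSG00000037936, chr5:125353547-125418176) are both on the minus strand of chromosome 5. Olr1 (ENSMUSG00000030162, chr6:129462207-129484128) lies on the minus strand of chromosome 6. The identifiers of Msr1 and Colec12 are ENSMUSG00000025044 and ENSMUSG00000036103. Exons of other annotated genes cover 3.78% of the exonic bases of Scarb1 and 1.49% of those of Scarb2, all on the opposite strand, and none of the other 5 genes.

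Promoter sequences from RefSeq (build GRCm38.p6) were matched for 2 of the 7 genes, and those for Scara5, Scara3, Colec12, Msr1 and Scarb1 were not in the table. Both matched genes had higher RNA under HG + FFA in most sets, so the 250 bases before their start are shown, 5′ to 3′, at chr5:92505658-92505907 for Scarb2 and chr6:129507166-129507415 for Olr1, both on the minus strand of that build. Capitals mark the motif CANNTG, the binding letters of basic helix-loop-helix factors.
Scarb2: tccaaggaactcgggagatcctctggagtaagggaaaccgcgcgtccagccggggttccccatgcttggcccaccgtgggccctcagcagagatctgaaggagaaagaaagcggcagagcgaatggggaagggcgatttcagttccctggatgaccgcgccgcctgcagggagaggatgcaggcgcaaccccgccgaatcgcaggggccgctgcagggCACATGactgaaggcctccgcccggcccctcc
Olr1: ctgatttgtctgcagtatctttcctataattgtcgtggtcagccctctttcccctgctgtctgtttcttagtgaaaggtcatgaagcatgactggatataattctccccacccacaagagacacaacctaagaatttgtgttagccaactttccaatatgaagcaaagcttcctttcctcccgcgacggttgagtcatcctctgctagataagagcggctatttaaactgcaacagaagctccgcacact

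CANNTG, which reads the same on both strands, occurred in 1 place in the Scarb2 promoter, 32 bases before the start, and at 0 places in that of Olr1. It was found in 66.2% of all 32851 promoters of this length. The narrower motif CACGTG, a special case of CANNTG and also the same on both strands, was in neither promoter and in 6.02% of all promoters. The GC content was 65.6% for Scarb2 and 45.2% for Olr1, beside a median of 52.4% over all promoters. The letters of a motif in a window say nothing about binding.

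The levels of the 7 genes spanned a wide range in unstressed cells. Divided by exon length, the mean levels in WT VSMC Control were 65.1 ± 29.5 FPM per kb for Scarb2, 59.6 ± 18.4 for Scara3 and 54.6 ± 14.4 for Colec12 (SD, n = 4 each). These 3 genes were the most abundant of the family in every cell type, and neighbours in their order differed by less than the larger of their SDs. Scara5 followed in WT VSMC with 19.5 ± 14.45 FPM per kb, then Scarb1 with 2.18 ± 0.39 and Olr1 with 0.517 ± 0.103 FPM per kb (SD, n = 4 each). In KO VSMC Control the order was Scara3, Colec12, Scarb2, Scara5, Scarb1 and Olr1, with 51.5, 45.9, 35.9, 7.69, 2.26 and 0.407 FPM per kb. In EC Control it was Scarb2, Colec12, Scara3, Scarb1, Scara5 and Olr1, with 34.8, 27.4, 22.4, 3.97, 2.76 and 0.702 FPM per kb. Scara5 and Scarb1 were thus in a different order in EC, but the SD of Scara5 there (2.425 FPM per kb, n = 9) exceeded their difference.

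**Figure D1:**
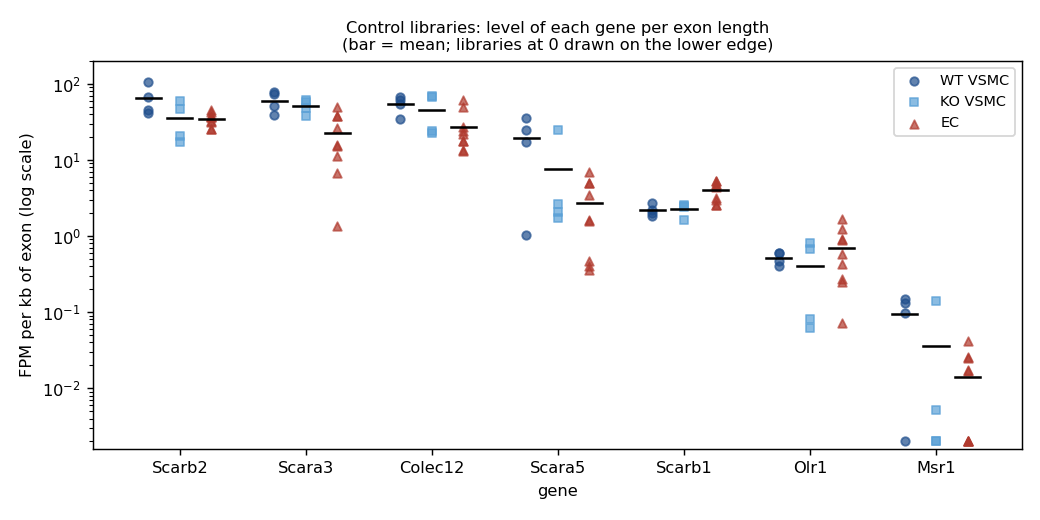
The level of each scavenger receptor in every Control library is drawn as FPM per kb of exon on a log axis, for WT VSMC (circles, n = 4), KO VSMC (squares, n = 4) and EC (triangles, n = 9), with the mean as a bar. Scarb2, Scara3 and Colec12 lie highest, Msr1 lowest, and Scara5 has the widest spread among the libraries of WT VSMC except for Msr1.

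Msr1, the class A receptor by which macrophages take up modified lipoproteins, was barely detected. Its level never exceeded 1.32 FPM in WT VSMC, 1.08 FPM in KO VSMC or 0.946 FPM in EC, and no read was counted in 2 of 16, 8 of 15 and 20 of 38 libraries. A count of 0 in the shallowest library allows up to 0.175 FPM, from counting error alone. In KO VSMC the 3 libraries of set 5 held 0.755 to 1.08 FPM, and no other library held more than 0.0326 FPM. Its log2FC against Control lay between -0.43 and 0.13 in VSMC with SE of 0.48 to 1.49, and in EC it did not pass the filter on low counts.

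Scara5, a class A receptor that binds ferritin and so supplies iron without transferrin, had RNA levels that differed widely between sets, from 2.77 to 219.7 FPM over the WT VSMC libraries. In WT VSMC Control, its level was 106, 152, 6.32 and 219.7 FPM in sets 1 to 4, and in KO VSMC Control it was 151, 16.2, 13 and 10.6 FPM in sets 5 to 8. In EC Control it ranged from 2.25 to 42.9 FPM with a median of 10.1 FPM (n = 9). Set 3 thus stood far below the other WT sets and set 5 far above the other KO sets, so that the ranges of both genotypes overlapped.

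Under HG + FFA the level of Scara5 was 41.4, 113.5, 2.77 and 148 FPM in WT VSMC sets 1 to 4, which is 39.1% to 74.8% of the respective Control. Under ALL it was 32.5, 54.1, 3.87 and 102 FPM, or 30.7% to 61.3% of Control. All 4 sets were lower than their own Control under both conditions, whereas the groups overlapped because of the spread between the sets. Under AII + NA, the levels of 82.1, 120.5, 6.62 and 179.8 FPM were 77.6% to 105% of Control, with 3 sets lower and set 3 slightly higher.

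In KO VSMC, Scara5 was likewise lower than Control in every set under HG + FFA and ALL. Under HG + FFA the level of Scara5 was 86.3, 10.5, 1.86 and 7.28 FPM in sets 5 to 8, and under ALL it was 9.97, 2.47 and 6.42 FPM in sets 6 to 8. Relative to Control these were 14.3% to 68.5% and 19% to 61.5%. Set 7 gave the lowest ratio under both conditions. Under AII + NA the levels were 135.7, 18, 11.1 and 12 FPM, with 2 sets lower and 2 higher than Control.

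In EC, Scara5 was lower than Control in 9 of 9 sets under HG + FFA, with a median of 52.7% and a range of 10.2% to 99.3%. Under ALL it was lower in 9 of 9 sets as well, with a median of 46.4% and a range of 6.02% to 75.7%. The set with a ratio of 99.3%, set 11, was among those with little endothelial RNA. Sets 9 and 13, which also held little of it, had ratios of 62.9% and 52.7%. AII + NA left 5 of 8 sets lower and 3 higher than Control, with a median of 91.8%. Over the 3 cell types, Scara5 was thus lower in 17 of 17 sets with HG + FFA and in 16 of 16 sets with ALL, of which some share an animal.

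**Figure D2:**
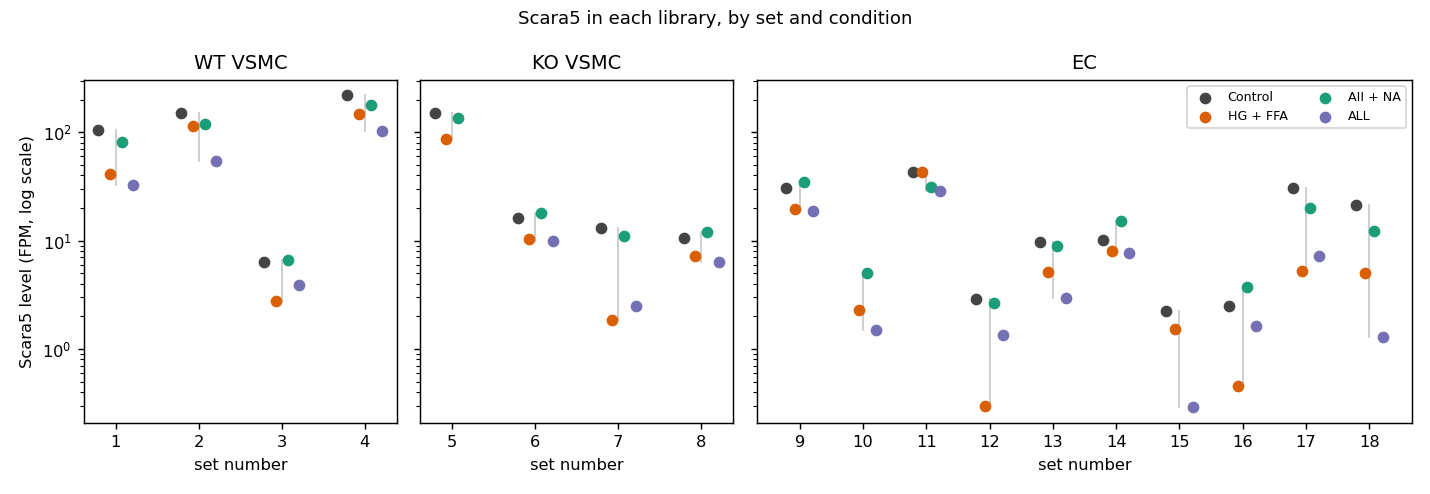
The level of Scara5 in each library is drawn in FPM on a log axis against the set number, with the 4 conditions in colours, and a grey line spans the libraries of a set. The points for HG + FFA and ALL lie below the Control point in every set with a Control library, at 6.02% to 99.3% of it, and sets of the same cell type lie far apart.

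Fitted over all sets, the log2FC of Scara5 in WT VSMC was -0.82 (SE 0.17) under HG + FFA, -0.26 (SE 0.17) under AII + NA and -1.31 (SE 0.17) under ALL. In KO VSMC, the corresponding values were -1.08 (SE 0.27), -0.05 (SE 0.26) and -1.21 (SE 0.31), and Scara5 did not meet the call rule there. For EC they were -1.23 (SE 0.28), -0.16 (SE 0.28) and -1.47 (SE 0.28). Without the EC sets 9, 11 and 13, which held little endothelial RNA, the values in EC were -1.66 (SE 0.37) and -1.74 (SE 0.38) for HG + FFA and ALL. Without KO set 7 the log2FC in KO VSMC was -0.67 (SE 0.11) under HG + FFA and -0.78 (SE 0.14) under ALL. Without WT set 1 the value under HG + FFA in WT VSMC was -0.62 (SE 0.18). Without KO set 5 the value under HG + FFA in KO VSMC was -1.23 (SE 0.33). All of these values were below 0.

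The addition of AII + NA to HG + FFA was examined directly. The log2FC of Scara5 for ALL against HG + FFA was -0.50 (SE 0.17) in WT VSMC, with a lower level in 3 of 4 sets. It was -0.12 (SE 0.31) in KO VSMC and -0.25 (SE 0.28) in EC, lower in 2 of 3 and 7 of 10 sets. ALL against AII + NA, which shares the ALL libraries, gave -1.06 (SE 0.17), -1.16 (SE 0.31) and -1.32 (SE 0.28) in WT VSMC, KO VSMC and EC, with a lower level in 16 of 16 sets.

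Across all genes, the comparison of ALL with HG + FFA called 0.0296% of the genes tested in WT VSMC and 0% in KO VSMC and EC, and 0 of the scavenger receptors. At an unadjusted p under 0.05, 510 genes were found in KO VSMC and 881 in EC, and DESeq2 alone gave 0 genes in both. The comparison of ALL with AII + NA called 0.538%, 0.302% and 0.63% of all genes in WT VSMC, KO VSMC and EC, with 1 member in each, namely Scara5, Scarb2 and Scara5. As both genes were taken to be chosen by the response of the same ALL libraries, nothing can be read from these member counts.

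Whether the effects of HG + FFA and AII + NA on a gene added up on the log2 scale was tested with edgeR. The departure from additivity for Scara5 was -0.24 (SE 0.24) in WT VSMC, -0.08 (SE 0.40) in KO VSMC and -0.09 (SE 0.39) in EC. For Scarb2 it was 0.07 (SE 0.14), -0.004 (SE 0.19) and -0.09 (SE 0.12), and for Scarb1 0.04 (SE 0.18), -0.04 (SE 0.15) and 0.08 (SE 0.12). By the call rule 0 genes were found in each cell type, that is 0% of those tested. DESeq2 alone also gave 0, and 290, 1155 and 1444 genes had an unadjusted p under 0.05 in WT VSMC, KO VSMC and EC.

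Scara3, a class A receptor known as a cellular stress response protein that limits oxidative damage, was not called under any stressor condition. Its levels in WT VSMC Control were 214, 329, 163 and 308.5 FPM in sets 1 to 4, and its log2FC was -0.13 (SE 0.08) under HG + FFA and -0.10 (SE 0.08) under ALL. In KO VSMC the log2FC lay between 0.04 and 0.08 for the 3 stressor conditions. In EC the values were -0.15 (SE 0.13), -0.26 (SE 0.14) and -0.09 (SE 0.13) for HG + FFA, AII + NA and ALL. Set 18 stood apart with 44.2%, 25.1% and 42.4% of its Control, whereas the medians over the sets were 102.9%, 96.3% and 109.9%. The level between EC sets differed far more, from 4.44 to 231 FPM over the 38 libraries, with the lowest values in set 17 (4.44 to 7.86 FPM). No contrast against Control had an FDR under 0.5 in edgeR.

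Colec12, a collectin with a class A-like structure that binds oxidised low density lipoprotein and microbial sugars, was lower than Control in most sets under each stressor condition. Its level in WT VSMC was 354.5, 562, 636.5 and 692 FPM in Control and 202.5, 404, 523 and 616 FPM under ALL in sets 1 to 4. All 4 sets were lower than their Control under ALL, at 57.1% to 89% of it, with overlapping groups. The log2FC was -0.43 (SE 0.11, FDR 0.0253 in edgeR and 0.00405 in DESeq2), below the required 0.64, so that Colec12 was not called. Leaving out any WT set moved its edgeR FDR above 0.05, to 0.0963, 0.0684, 0.0737 and 0.0617 without sets 1, 2, 3 and 4. In KO VSMC the log2FC under ALL was -0.39 (SE 0.12, FDR 0.239) and in EC -0.31 (SE 0.11, FDR 0.134). Under HG + FFA the values were -0.27 (SE 0.11), -0.31 (SE 0.11) and -0.28 (SE 0.11) in WT VSMC, KO VSMC and EC. Under AII + NA they were -0.26 (SE 0.11, FDR 0.464), -0.07 (SE 0.11) and -0.16 (SE 0.12), with 4 of 4 WT sets lower. Colec12 was lower than Control in 15 of 17 sets with HG + FFA, 12 of 16 with AII + NA and 14 of 16 with ALL. In EC the value rested partly on set 18, since without it the log2FC was -0.13 (SE 0.09) under HG + FFA and -0.17 (SE 0.09) under ALL.

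Scarb1, the receptor of high density lipoprotein that mediates selective uptake of cholesteryl esters, was higher in stressed WT VSMC. Its level was 20.7, 22.5, 28.3 and 19 FPM in Control and 34.1, 31.9, 43.1 and 26.3 FPM under ALL in sets 1 to 4. All 4 sets were higher, at 139% to 165% of their Control, and only the ALL value of set 4 lay below the highest Control value. The log2FC of 0.58 (SE 0.12) had an FDR of 0.00977 in edgeR and 0.000373 in DESeq2 but did not reach 0.64. Without each WT set in turn the log2FC lay between 0.53 and 0.62 and the edgeR FDR between 0.0139 and 0.0402. Under HG + FFA the log2FC was 0.30 (SE 0.12, FDR 0.362) and under AII + NA 0.24 (SE 0.12, FDR 0.582). The increase under HG + FFA was largest in set 3, to 44.4 FPM or 157% of Control, and without that set the log2FC was 0.16 (SE 0.13).

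In KO VSMC, Scarb1 under ALL was at 102% to 108.6% of Control in 3 sets, with a log2FC of 0.13 (SE 0.11, FDR 0.684). Under HG + FFA it was higher in 4 of 4 sets, with a log2FC of 0.25 (SE 0.10, FDR 0.34). In EC the log2FC was 0.02 (SE 0.09) under HG + FFA, -0.10 (SE 0.09) under AII + NA and 0.00 (SE 0.09) under ALL. The 95% interval of the value for ALL in EC was -0.16 to 0.17. This interval lies below the value of 0.58 measured in WT VSMC, but the difference between both cell types was not tested.

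Scarb2, a membrane protein of lysosomes, was the counterpart of Scara5 in direction. In KO VSMC its level was 414, 140.2, 119 and 319.6 FPM in Control and 555, 210.4, 295 and 523 FPM under HG + FFA in sets 5 to 8. Under ALL it was 209, 299 and 488.5 FPM in sets 6 to 8, and under AII + NA 366, 153, 147 and 297 FPM in sets 5 to 8. Every KO set was higher than its Control under HG + FFA (134% to 248%) and ALL (149% to 252%), and set 7 had the highest ratio under both.

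In WT VSMC, Scarb2 amounted to 315, 459.5, 289 and 733 FPM in Control and to 485, 555, 406 and 793 FPM under HG + FFA in sets 1 to 4. Under ALL the levels were 491, 503, 378 and 667 FPM, higher than Control in sets 1 to 3 and at 91% of it in set 4. AII + NA gave 305, 412, 282 and 532 FPM, lower than Control in 4 of 4 sets. In EC, Scarb2 was higher in 9 of 9 sets under HG + FFA, with a median of 149.7% of Control and a range of 108.5% to 182.5%, and in 9 of 9 sets under ALL, with a median of 154% and a range of 115% to 181.5%. Under AII + NA the median in EC was 103.5%.

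**Figure D3:**
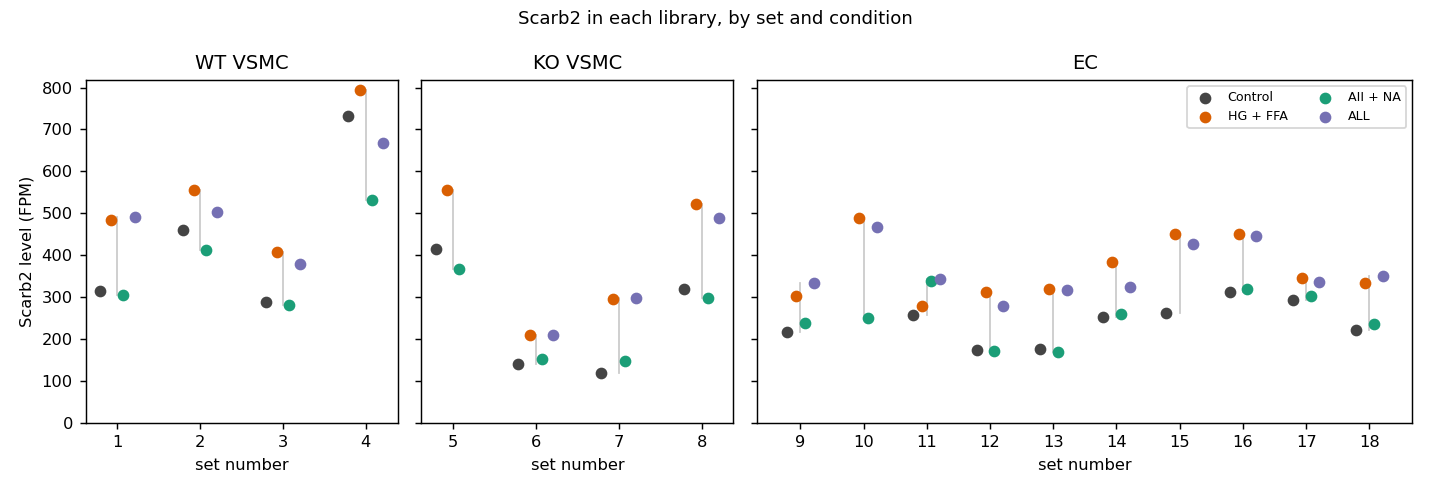
The level of Scarb2 in each library is drawn in FPM on a linear axis from 0 against the set number, with the 4 conditions in colours. The HG + FFA points lie above the Control point in 17 of 17 sets and the ALL points in 15 of 16, and the AII + NA points lie at 72.5% to 131.7% of Control.

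The fitted log2FC of Scarb2 was 0.75 (SE 0.13), 0.02 (SE 0.13) and 0.77 (SE 0.14) for HG + FFA, AII + NA and ALL in KO VSMC. It was 0.37 (SE 0.10), -0.19 (SE 0.10) and 0.25 (SE 0.10) in WT VSMC and 0.59 (SE 0.08), 0.07 (SE 0.09) and 0.57 (SE 0.08) in EC. The values in EC thus lay just under the limit of 0.64, and those in KO VSMC just above it. Without set 7 the values in KO VSMC were 0.57 (SE 0.11) and 0.54 (SE 0.13) for HG + FFA and ALL, also under the limit. Without WT set 1 the value for ALL in WT VSMC was 0.12 (SE 0.10). ALL against HG + FFA gave -0.11 (SE 0.10), 0.02 (SE 0.14) and -0.02 (SE 0.08) in WT VSMC, KO VSMC and EC.

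Olr1, the receptor of oxidised low density lipoprotein best known from endothelium, was low in VSMC and more abundant in a part of the EC sets. In EC Control its level ranged from 0.293 to 6.68 FPM with a median of 2.32 FPM (n = 9). Under HG + FFA it ranged from 0.690 to 22.9 FPM and under ALL from 0.747 to 18.2 FPM (n = 10 each). The groups overlapped, and set 12 was the highest under both conditions, and the next 4 sets were 10, 11, 13 and 14 in both, in different order. Relative to its own Control, Olr1 was higher in 7 of 9 EC sets under HG + FFA and in 8 of 9 sets under ALL, with medians of 134% and 204.6%. The log2FC was 0.79 (SE 0.26) under HG + FFA, with an FDR of 0.0898 in edgeR and 0.0371 in DESeq2, and 0.88 (SE 0.26) under ALL, with 0.0573 and 0.02. As edgeR missed 0.05 in both, Olr1 was not called, while DESeq2 alone or a fit with no count filter (edgeR FDR 0.00701 and 0.00144) would call it. The fit with no count filter also changed the SE of other values under HG + FFA. It went from 0.40 to 0.20 for Olr1 in WT VSMC and from 0.098 to 0.13 for Scarb1 in KO VSMC. Without EC sets 9, 11 and 13 the log2FC values of Olr1 in EC were 0.96 (SE 0.31, FDR 0.11) and 0.98 (SE 0.31, FDR 0.112). In VSMC, where Olr1 did not exceed 4.83 FPM, the log2FC lay between -0.44 and 0.49 with SE of 0.40 to 0.53.

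**Figure D4:**
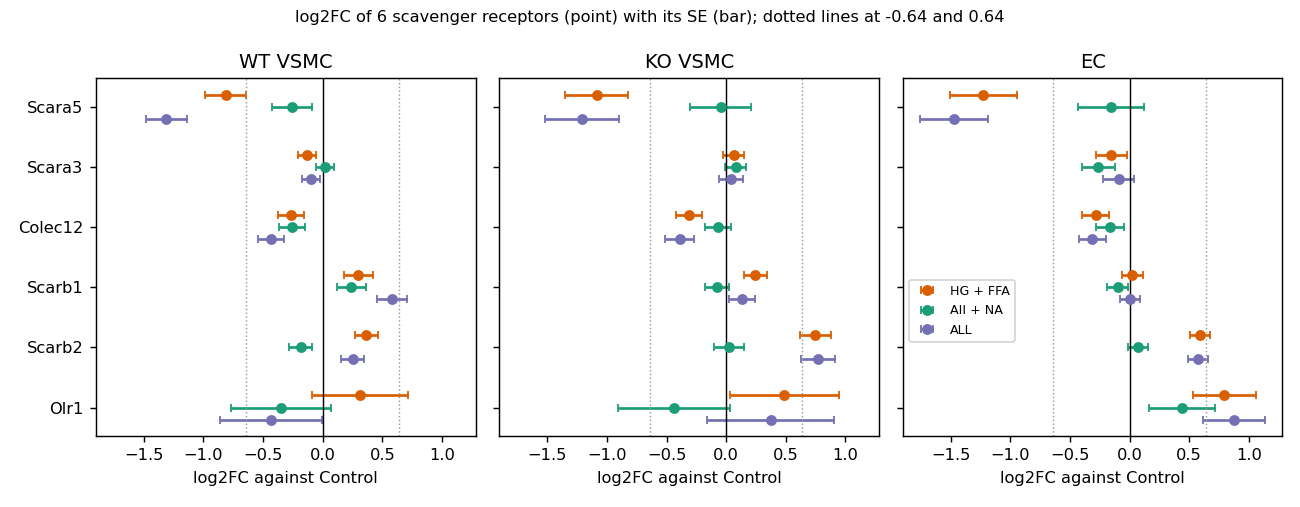
The log2FC against Control (point) and its SE (bar) from edgeR are drawn for 6 scavenger receptors in WT VSMC, KO VSMC and EC, with the conditions in colours and dotted lines at the limits of -0.64 and 0.64. Scara5 lies lowest, between -0.82 and -1.47 with HG + FFA and ALL, Scarb2 lies above 0 with the same conditions, and the AII + NA values of both lie between -0.26 and 0.07.

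Counted together, 1 of the 7 members was called in WT VSMC under HG + FFA and under ALL (Scara5), beside 0.284% and 2.18% of all genes tested. In KO VSMC it was 1 of 7 under HG + FFA and ALL (Scarb2), beside 0.285% and 0.314%. In EC it was 1 of the 6 members tested under HG + FFA and ALL (Scara5), beside 0.647% and 0.641%. Since Scara5 and Scarb2 were taken to be chosen by these contrasts, nothing can be read from the counts. AII + NA called 0 members in any cell type, beside 0.0414% of the genes in WT VSMC and 0% in KO VSMC and EC. In these comparisons 1711 genes of KO VSMC and 1143 of EC had an unadjusted p under 0.05 in edgeR, 0 of them scavenger receptors, and DESeq2 alone gave 11 and 0 genes. In WT VSMC the unadjusted p under AII + NA was below 0.05 for 1 member, Colec12. With no limit on the log2FC, 3 of 7 members passed in WT VSMC under ALL (Scara5, Scarb1 and Colec12), beside 6.58% of all genes. Under that rule Scara5 and Scarb2 passed in EC, beside 3.45% under HG + FFA and 3.07% under ALL.

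The difference between both genotypes in the stressor response was estimated in a joint fit, as the WT value less the KO value. For Scara5 it was 0.25 (SE 0.34) under HG + FFA, -0.20 (SE 0.33) under AII + NA and -0.11 (SE 0.37) under ALL. The 95% interval for ALL ran from -0.83 to 0.62. For Scarb2 the difference was -0.38 (SE 0.17) under HG + FFA and -0.52 (SE 0.18) under ALL. For Scarb1 it was 0.45 (SE 0.17) under ALL, with an unadjusted p of 0.0126 in edgeR that failed the correction over all genes (FDR 0.525). By the call rule 0%, 0% and 0.0109% of all genes differed under HG + FFA, AII + NA and ALL, and 0 members. DESeq2 alone gave 0 genes for HG + FFA and AII + NA, and 564 and 2182 genes had an unadjusted p under 0.05.

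In unstressed cells, no member passed the test between KO VSMC and WT VSMC in edgeR or DESeq2, and 0.00622% of all genes were called. The deleted gene Egfr itself was not called, with a log2FC of -5.15 (SE 1.37) and an FDR of 0.32 in edgeR and 0.00832 in DESeq2, so that a gene not called here may still differ. At an unadjusted p under 0.05 the number of members was also 0. The log2FC of Scara5 (KO minus WT) was -1.39 with an SE of 1.08 (FDR 0.574). Without set 5 it was -3.23 (SE 0.92, FDR 0.0928), and without WT set 3 it was -1.79 (SE 0.92, FDR 0.511). Without both sets, which were picked after their Scara5 values were seen, the means were 159 FPM in WT VSMC and 13.3 FPM in KO VSMC, and no test is given. Scarb2 had a log2FC of -0.89 (SE 0.46, FDR 0.432), and without set 5 of -1.26 (SE 0.45, FDR 0.134). Set 5 was the KO set with residual Egfr, and its part in these differences was not tested.

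Between cell types, EC Control differed from WT VSMC Control in 3 of the 6 members tested, beside 9.3% of all genes. EC had less Scara5 (log2FC EC minus WT VSMC -2.93, SE 0.80, FDR 0.0321 in edgeR) and less Scarb2 (-1.005, SE 0.24, FDR 0.0194), but more Scarb1 (0.77, SE 0.24, FDR 0.0477). Scarb1 amounted to 26.4 to 55.3 FPM in EC (median 45.4 FPM, n = 9) and to 19 to 28.3 FPM in WT VSMC, with overlapping ranges. Scarb2 ranged from 173 to 313 FPM in EC (median 252 FPM), so that only the EC values of 291.8 and 313 FPM lay above the lowest WT value of 289 FPM. Colec12 (-1.09, SE 0.38, FDR 0.0738) and Scara3 (-1.51, SE 0.60, FDR 0.105) did not pass, and Olr1 had a log2FC of 0.34 (SE 0.62). Without EC sets 9, 11 and 13, Colec12 (-1.68, SE 0.23, FDR 0.000595) and Scara3 (-2.31, SE 0.57, FDR 0.0122) were called as well, which made 5 of 6, beside 20.9% of all genes in that fit.

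These calls depended on single WT sets. Without set 1, 2 or 4 the edgeR FDR of Scara5 was 0.0717, 0.0877 and 0.104, and without set 3 it was 0.022. For Scarb2 it was 0.0608 without set 2 and 0.0915 without set 4, and for Scarb1 it lay between 0.0749 and 0.134 when any single set was left out. The batch label (B1 for VSMC, B2 for EC), the organ and the cell type cannot be told apart, and EC sets 9 and 10 came from animals that also gave WT VSMC.

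Scara5 is also known as a gene of adventitial fibroblasts, and some markers of these cells were lower in the same libraries. Of 10 such markers, 2 were called lower in WT VSMC under HG + FFA, namely the stem cell antigen Cd34 with a log2FC of -0.85 (SE 0.11) and the peptidase inhibitor Pi16 with -0.71 (SE 0.11). Under ALL, 4 were called lower. These were Cd34 (-1.23, SE 0.12), the collagen Col15a1 (-1.26, SE 0.20), Clec3b (-0.84, SE 0.12) and Pi16 (-0.85, SE 0.11). The median log2FC of the 10 markers was -0.29 under HG + FFA and -0.51 under ALL, beside -0.01 over all genes in both. In KO VSMC 0 of 10 were called, with medians of -0.35 and -0.30. In EC, Col15a1 (-0.79, SE 0.13) and Pi16 (-1.03, SE 0.29) were called lower under HG + FFA and Col15a1 (-0.96, SE 0.13) under ALL. The summed level of the 10 markers ranged from 3109 to 5533 FPM in WT VSMC Control and from 2049 to 4273 FPM under ALL. The summed level was 593 to 2560 FPM in KO VSMC Control and 461 to 3840 FPM in EC Control.

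Between sets, the summed fibroblast markers did not order the sets as Scara5 did. WT set 3, with a Scara5 mean of 4.9 FPM, had a sum of 4085 FPM, above sets 1 and 2 (2670 and 2827 FPM) with Scara5 means of 65.5 and 110 FPM. WT set 4, with the highest Scara5 mean of 162.5 FPM, had the highest sum of 4648 FPM. In KO VSMC, set 5 had a sum of 2395 FPM and sets 6 to 8 had sums of 555 to 1209 FPM. The single marker Pi16, singled out after its values were seen, was higher in WT sets 1, 2 and 4 and KO set 5 (63.8 to 375 FPM) than in the other VSMC sets (2.23 to 27.9 FPM). Clec3b divided the sets in the same way (87.4 to 255 against 6.45 to 34.4 FPM). Dpt and Pdgfra did not, with 68.9 and 245 FPM in WT set 1 against 298 and 669 FPM in WT set 3. The other markers of the list are not given by set. In EC, set 13 had the highest sum of 4564 FPM with a Scara5 mean of 6.68 FPM, and set 11 had 3708 FPM with the highest Scara5 mean of the EC, 36.5 FPM. The part of fibroblast RNA in the values of Scara5 was not tested.

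**Figure D5:**
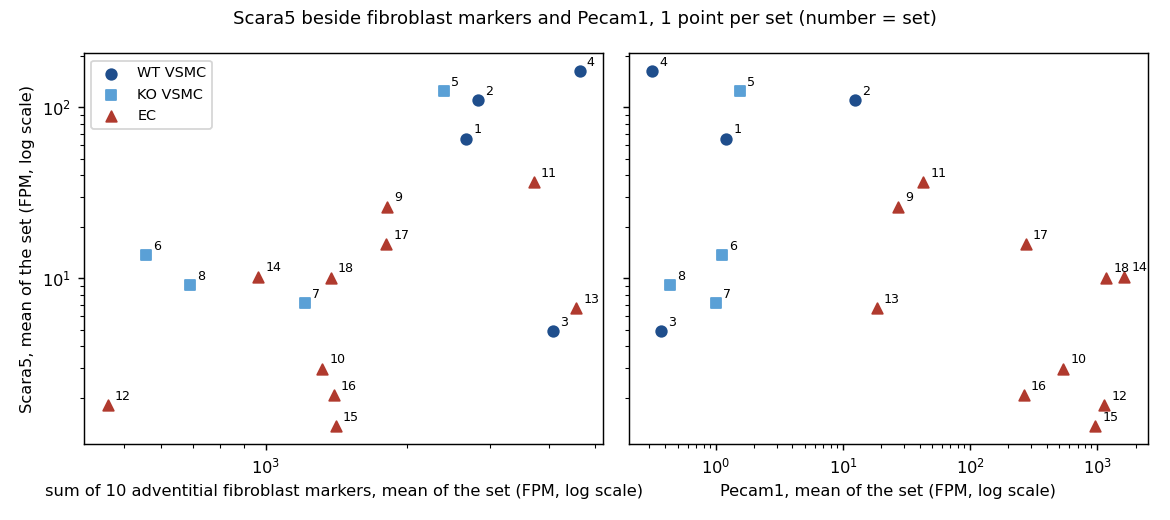
The mean level of Scara5 over the libraries of a set is plotted against the summed level of 10 adventitial fibroblast markers (left) and against the endothelial gene Pecam1 (right), with all axes in FPM on a log scale and the set number beside each point. WT set 3 lies low in Scara5 (4.9 FPM) at a high marker sum (4085 FPM), and EC sets 9, 11 and 13 lie to the left of the other EC sets in Pecam1 (18.4 to 42.8 FPM).

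Macrophage markers bear on Msr1 and Olr1. Their summed level was 28.5 to 231 FPM in WT VSMC Control, 17.2 to 129 FPM in KO VSMC Control and 5.12 to 107 FPM in EC Control. The single marker Lyz2 made up most of this sum in every set. Its set mean was 158 of 189 FPM in WT set 1 and 27.2 of 32.85 FPM in WT set 3, so the sum mainly reflects this gene. Whether the sum measures macrophage content was not tested. The leukocyte gene Ptprc did not exceed 0.844 FPM in WT VSMC, 1.63 FPM in KO VSMC and 1.04 FPM in EC. Of the 8 macrophage markers, 6 were tested, and 0 were called under any stressor condition. The macrophage gene Adgre1 had a set mean of 6.43 FPM in KO set 5 and of 0 to 0.0852 FPM in KO sets 6 to 8. Among the KO sets, Msr1 was likewise highest in set 5. In WT VSMC the set means of Adgre1 were 10.8, 9.03, 0 and 4.69 FPM in sets 1 to 4. Those of Msr1 were 0.758, 0.799, 0.0279 and 0.55 FPM. In WT set 3, Adgre1 and Ptprc had 0 reads in every library.

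Markers of smooth muscle and endothelium changed in WT VSMC. The myosin kinase Mylk was called higher under AII + NA (1.09, SE 0.18) and ALL (1.11, SE 0.18). Tagln was called higher under ALL (0.95, SE 0.26), where its mean was only 5.12 FPM. The median log2FC of the 8 smooth muscle markers was 0.73 under both conditions, beside -0.01 over all genes, and -0.13 under HG + FFA. The endothelial Cdh5 was called lower under ALL (-1.17, SE 0.25), with a median of -0.72 over 10 endothelial markers, whose summed level was 3.66 to 73.2 FPM in Control. Cdh5 had a set mean of 17.9 FPM in WT set 2 and of 0.0562 to 0.611 FPM in the other WT sets. It thus reached the minimum of 3 FPM through set 2 alone. In KO VSMC and EC 0 markers of these lists were called under any condition. The part of these cells in the values of the scavenger receptors was not tested.

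Of 21 other scavenger and lipoprotein receptors, 20 were tested in WT VSMC. Under ALL, Cd36 was called higher and Vldlr lower. The fatty acid and lipoprotein receptor Cd36 had a log2FC of 1.95 (SE 0.37) with a mean of 3.23 FPM under ALL, and the very low density lipoprotein receptor Vldlr -0.72 (SE 0.12). The median over the list was -0.15, beside -0.01 over all genes. Under HG + FFA and AII + NA 0 were called. In KO VSMC and EC 0 of 19 were called under any condition, where Vldlr had a log2FC of -0.64 (SE 0.13) and -0.46 (SE 0.10) under ALL. Vldlr passed the FDR in both tools there but not the limit on the log2FC. Cd36 in EC had a log2FC of 3.35 (SE 0.81) under HG + FFA and passed in edgeR (FDR 0.0159) but not in DESeq2 (FDR 0.0987).

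Of 18 genes of iron and ferritin handling, fixed because Scara5 binds ferritin, 1 was called lower in WT VSMC under ALL, the endosomal ferrireductase Steap3 (-0.82, SE 0.12). In KO VSMC the haem oxygenase Hmox1 was called higher under ALL (0.91, SE 0.11). In EC the transferrin receptor Tfrc was called higher under HG + FFA (0.73, SE 0.13) and ALL (0.75, SE 0.13), and Hmox1 under ALL (0.74, SE 0.14), while the ferroxidase Heph was called lower under ALL (-0.73, SE 0.21). The heavy chain of ferritin, Fth1, with a mean of up to 5853 FPM in WT VSMC, had a log2FC of -0.47 (SE 0.09) under ALL there, under the limit. The medians of the list under ALL were 0.02, 0.01 and 0.095 for WT VSMC, KO VSMC and EC, beside -0.01, -0.00 and -0.01 over all genes.

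Of 22 genes that act with Scarb1 in the handling of high density lipoprotein or with Scarb2 in lysosomes, 21 were tested. The cholesterol exporter Abca1 was called lower in WT VSMC under ALL (-0.78, SE 0.17) and in EC under HG + FFA (-1.10, SE 0.16) and ALL (-1.25, SE 0.16). In KO VSMC its log2FC was -0.66 (SE 0.19) under HG + FFA and -0.88 (SE 0.22) under ALL. It was not called there because edgeR missed 0.05 (FDR 0.214 and 0.118), while DESeq2 gave an FDR of 0.0459 and 0.00647. The exporter Abcg1 was called lower in EC under the same conditions (-1.24, SE 0.20, and -1.635, SE 0.20). The lysosomal membrane genes Lamp1 and Lamp2 were not called in any cell type. The medians of the list under HG + FFA were -0.04, -0.00 and -0.07 in WT VSMC, KO VSMC and EC.

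The genes whose RNA varied most like that of Scara5 were sought in WT VSMC, as the Pearson correlation of log2(FPM + 0.1) after subtraction of each set's mean, over 16 libraries of 4 animals and 11144 protein-coding genes. The highest values belonged to Cdkn1c (0.97), Cd34 (0.95), H1f0 (0.95), Aldh1a3 (0.95) and Cyb561 (0.94), and the lowest to Pdgfd (-0.96), Dhrs3 (-0.95) and Pcdh10 (-0.94). Over all these genes the 1% and 99% quantiles were -0.84 and 0.85. The values share the libraries and their conditions and are a description.

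Over the 15 KO VSMC libraries, the correlation was 0.85 for Cdkn1c, 0.74 for Cd34, 0.82 for H1f0, 0.81 for Aldh1a3 and 0.49 for Cyb561. Over the 38 EC libraries, it was 0.06, 0.18, 0.58, 0.15 and 0.06 for the same genes. Dhrs3, a retinal reductase, had -0.60 in KO VSMC and -0.75 in EC, and its log2FC under ALL was 1.65, 0.75 and 0.80 in WT VSMC, KO VSMC and EC. Aldh1a3, which makes retinoic acid, had a log2FC of -1.48, -1.23 and -0.56 under ALL. Among the family, Scarb2 correlated with Scara5 at -0.69, -0.94 and -0.75, and Colec12 at 0.78, 0.87 and 0.56, in WT VSMC, KO VSMC and EC. As Scara5 and Scarb2 were taken to be chosen by their stressor response in these libraries, nothing can be read from their correlation. Scarb1 correlated at -0.85, -0.73 and -0.21 and Scara3 at 0.66, 0.19 and 0.09.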

How the data were processed

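PolyA-enriched RNA of cultured VSMC and EC was sequenced in bulk. The authors deposited raw read counts per Ensembl gene in 3 tables (WT VSMC, KO VSMC, EC), made with HISAT2 2.1.0 on mm39 and featureCounts with multi-mapped reads counted. Whether strand was used is not given in the sources used here. Groups came from the labels. Sets share an animal and culture, and libraries of a set deviated together (mean r of 0.818, 0.804 and 0.857 in WT VSMC, KO VSMC and EC, lowest pair 0.495), so the set was a block. Counts were filtered with filterByExpr, TMM-normalised and tested with edgeR 4.0.16 (quasi-likelihood, R 4.3.3) and DESeq2 1.42.0 within each cell type, with Benjamini-Hochberg FDR over all genes. The joint genotype fit kept the block. Control comparisons between genotypes and cell types had none. Scripts were tested on simulated data. FPM are counts scaled by the TMM library size (edgeR's CPM). SE is |log2FC| divided by the root of F. The 95% intervals are from the SE and the normal distribution, which makes them narrow for few sets. With the set as a block, the SE holds the spread of the stressor effect between sets. It does not hold the spread of the level between sets. Floors of 3 reads cover counting error only.

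The 7 members and all lists were chosen with earlier results of these data known. Members and Egfr are named in every group, list genes where called (at most 4 per list and cell type, by |log2FC|), and genes most like Scara5 by rank (5 highest, 3 lowest, at least 3 FPM). Genes outside this rule (Pecam1, Myh11, Acta2, Pi16, Clec3b, Dpt, Pdgfra and Cdh5 levels, Ptprc, Adgre1, Lyz2, Fth1, Vldlr outside WT VSMC, Abca1 in KO VSMC, the lysosomal examples) were chosen after their values were seen. Alternatives tried are listed in the closing section. Positions are from GENCODE vM39. Some genes of the lists are not reported here.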

Additional observations from a re-analysis of the deposited data

Results flagged for a closer look

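Of 73 groups of 4 to 10 libraries examined for a library far from the rest by Dixon's test, of which chance flags about 1 in 20, 10 had such a library. KO VSMC set 5 accounted for 7 of them. Its Scara5 level was 151 FPM in Control, 86.3 FPM under HG + FFA and 135.7 FPM under AII + NA, far above sets 6 to 8. Its Msr1 level was 0.884, 0.755 and 1.08 FPM in the same order, and its Scarb1 level in Control was 16.9 FPM, the lowest of the KO sets. The residual Egfr, Myh11 and Pi16 of set 5 are given with the description of the libraries, and their part was not tested. EC set 11, a set with little Pecam1, had 42.6 FPM of Scara5 under HG + FFA. EC set 12 had 22.9 FPM of Olr1 under HG + FFA. WT VSMC set 3, which had the lowest Scara5 of its group, had 44.4 FPM of Scarb1 under HG + FFA.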

How the results depend on the processing

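The log2FC of the members mostly kept direction and side of the threshold (332 of 375 values, with 25 weaker, 8 stronger and 10 reversed), as did 245 of 285 counts of called members. Weaker and stronger refer to the side of the threshold, not to the size of the log2FC. For Scara5 in WT VSMC under HG + FFA, -0.90 without set 4 counted as weaker beside -0.82 with all sets. With no replicate block, the fit that ignores the set, 0 members were called under HG + FFA, ALL or ALL against AII + NA in any cell type. With a log2FC limit of 1, 0 members were called in WT VSMC under HG + FFA and in KO VSMC under HG + FFA, ALL and ALL against AII + NA. With no log2FC limit, 3 were called in WT VSMC under ALL, and 2 in WT VSMC for ALL against AII + NA and in EC under HG + FFA, ALL and ALL against AII + NA. DESeq2 alone and no count filter each gave 2 in EC under HG + FFA and ALL. Without EC sets 9, 11 and 13, which were picked after their markers were seen, 5 differed between EC and WT VSMC.

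Leaving out 1 set at a time gave 0 to 1 members in WT VSMC under HG + FFA (0 without set 1, 3 or 4) and for ALL against AII + NA (0 without set 1). It gave 0 to 2 in KO VSMC under HG + FFA, 0 to 1 under ALL and 0 to 1 for ALL against AII + NA, with 0 in all 3 without set 6, 7 or 8. Between EC and WT VSMC it gave 0 to 2.

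Reversed values were near 0 or imprecise. With no replicate block, Olr1 in KO VSMC under ALL was -0.59, and Scarb1 in EC was -0.0089 under HG + FFA and -0.0122 under ALL, or -0.0044 with the animal as block. For KO against WT VSMC, Scarb1 was -0.00071 with no count filter and ranged from -0.0637 to 0.138 when 1 set was left out (-0.0093, -0.0637, -0.0083, -0.0251 and -0.0543 without sets 1, 4, 6, 7 and 8). No paired fit was made for KO against WT or EC against WT VSMC, whose sets differ. At 3 reads, the shallowest library reaches 0.175 FPM, which limits Msr1. The causes of these changes were not tested.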
